A study of Heterocephalus glaber with 6 samples.

Results

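The loci described here are the 100 that stood highest in skin epidermis of naked mole-rats after both of 2 chemical regimens, chosen by their measured counts from the 33281 gene IDs of the count tables. Levels are given as CPM, the count over the library's total count, times 1000000. A locus was eligible when it had at least 2 CPM in all 4 treated libraries, which 11559 loci had. Eligible loci were ranked by the lowest treated CPM plus 0.5 over the highest acetone CPM plus 0.5, called the ratio here, and the first 100 were taken. The ratio used all 8 libraries, so the higher level of these loci after treatment than after acetone is how they were selected and is given as a description, without a test.

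The animals were wild type and 6 to 7 months old. The DMBA/TPA group had 1 application of 100 µl of DMBA (7,12-dimethylbenz[a]anthracene) at 1 mg/ml on the back, then TPA (a phorbol ester) at 0.1 mg/ml, applied 2 times per week, and was harvested on day 46. The DMBA group had the same application of DMBA alone and was harvested on day 10. Each regimen had its own control set treated with acetone, the solvent of both agents, and the sources used here do not give the day on which control skin was taken. Each of the 4 groups had 2 libraries, called first and second by the sample number in the labels or, for the controls, by the order of their 2 count columns. Both columns of a control set belong to 1 GEO sample, and nothing in the labels ties a library to an animal of its own. The p-values below therefore measure the spread between libraries, which may be technical.

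In the skin of rodents, DMBA is taken up by cells and converted by cytochrome P450 enzymes, which the aryl hydrocarbon receptor induces, into products that bind DNA. TPA imitates diacylglycerol and activates protein kinase C, and repeated doses drive keratinocyte division, thickening of the epidermis and inflammation in mouse skin. DMBA followed by TPA is the classical protocol of tumour initiation and promotion in mice. Naked mole-rats are long-lived rodents in which tumours are rarely seen.

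None of the 100 loci could be given a gene name. Of the 33281 IDs, 0 matched the RefSeq gene table used here (H.glaber_assembly_v1.0, 42221 genes), and no file used here gives a symbol beside an ID. The epidermal identity of the samples could therefore not be checked against marker genes, no pathway list could be counted, and no sequence is shown. In whole epidermis, more RNA per cell and more cells of a type cannot be told apart. IDs beginning with ENSHGLG have the format of Ensembl genes, and those beginning with MSTRG the format of loci from a transcript assembly.

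Total counts were 34537133 and 38124702 in the DMBA/TPA libraries and 30080934 and 35238753 in the DMBA libraries, against 24337164 and 24153238 in the DMBA/TPA controls and 22852358 and 27486387 in the DMBA controls. The lowest count of any of the 100 loci in a treated library was 61. All 100 passed the low-count filter of the model, which their treated counts alone would have passed, so that number says nothing more of them.

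The lowest treated level was less than 1.5 times the highest acetone level, by the ratio, for most of the 100 loci, while group means stood further apart. The ratio lay between 1.28 and 3.76, with a median of 1.42. It was above 1.5 in 34 loci, above 2 in 7 and above 3 in 2. By group means, the fold over own controls had a median of 2.42 after DMBA/TPA and 2.04 after DMBA, and it reached 2 for 74 loci after DMBA/TPA, for 53 after DMBA and in both regimens for 41 loci. The eligible loci as a whole had median folds of 0.786 and 0.915 on the same CPM scale. Every treated library lay above every acetone library in all 100 loci, which the ranking made so. The same held for 558 eligible loci, or 4.83%, while 2242 had every treated library below every acetone library. These last numbers depend on the scaling, and on TMM-scaled CPM, TMM being the scaling of the model used below, 1578 eligible loci (13.7%) had every treated library above every acetone library and 1044 had every one below. All 100 loci kept their place above acetone on that scale.

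**Figure D1:**
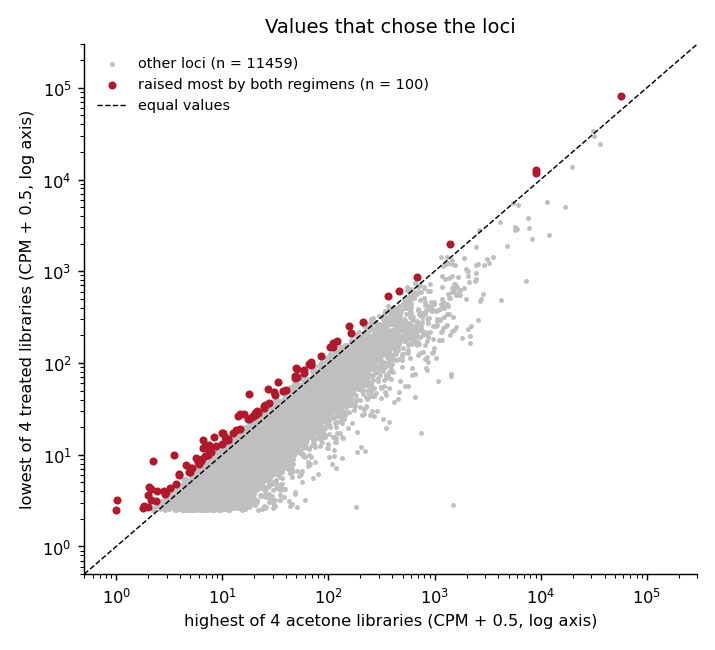
Lowest treated CPM against highest acetone CPM, both plus 0.5 on log axes, for every eligible locus, with the 100 loci in red and the line of equal values dashed. The 100 loci follow the upper edge of the cloud at every level, and most lie close to it.

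The edge of the set was not a gap. Rank 98 was ENSHGLG00000017792, with a lowest treated value of 5.92 CPM and a highest acetone value of 4.51 CPM. MSTRG.14881 at rank 99 had 11656 and 9107 CPM, and MSTRG.14578 at rank 100 had 863 and 676 CPM. Just outside, MSTRG.13795, MSTRG.10817 and MSTRG.12266 had ratios of 1.273, 1.271 and 1.269, next to 1.276 at rank 100. The set also leaned on single libraries. Ranked without the second DMBA library, 53 of the 100 were chosen again, and with means in place of lowest and highest values 51 were.

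Among the 10 loci of highest ratio 5 had Ensembl-format IDs and 5 assembled IDs, and their treated levels lay between 2.03 and 73.8 CPM. MSTRG.4441 had 9.73 and 7.95 CPM in the DMBA/TPA libraries and 17.3 and 17.7 CPM in the DMBA libraries, against 0 and 0.497 CPM in the DMBA/TPA controls and 0.175 and 1.75 CPM in the DMBA controls. Its ratio was the highest, at 3.76, and the DMBA libraries were above the DMBA/TPA libraries. The acetone values rested on 0, 12, 4 and 48 counts, in that order. ENSHGLG00000006131 stood at 3.45 and 2.70 CPM after DMBA/TPA and at 3.66 and 3.15 CPM after DMBA, with 0.37 and 0.373 CPM in the DMBA/TPA controls and 0 and 0.509 CPM in the DMBA controls. The first DMBA control library had 0 counts of it, which allows up to 3 counts, and the ratio was 3.17. ENSHGLG00000015752 had 3.59 and 5.30 CPM in the DMBA/TPA libraries and 2.03 and 3.46 CPM in the DMBA libraries, against 0.493 and 0 CPM in the DMBA/TPA controls and 0 and 0 CPM in the DMBA controls. Both DMBA control libraries had no count of this locus. Against a floor of 3 counts per library it was at least 22.8-fold higher after DMBA, the only one of the 100 loci for which a fold had to be bounded.

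Other loci among the 10 were measured well above the floor in every library. ENSHGLG00000017641 stood at 10.5 and 9.55 CPM after DMBA/TPA and at 13.7 and 15.2 CPM after DMBA, with 3.04 and 2.86 CPM in the DMBA/TPA controls and 2.54 and 1.71 CPM in the DMBA controls. The groups of each regimen did not overlap, and the DMBA libraries were highest. MSTRG.11256 had 51.2 and 47.0 CPM in the DMBA/TPA libraries and 45.0 and 46.7 CPM in the DMBA libraries, against 11.1 and 17.2 CPM in the DMBA/TPA controls and 14.8 and 6.37 CPM in the DMBA controls. The treated libraries of this locus lay close together, while its acetone libraries spread from 6.37 to 17.2 CPM. MSTRG.5521 stood at 16.4 and 19.4 CPM after DMBA/TPA and at 15.8 and 14.1 CPM after DMBA, with 3.25 and 5.01 CPM in the DMBA/TPA controls and 6.08 and 4.44 CPM in the DMBA controls. Here the second DMBA/TPA library was highest and the acetone libraries of the 2 control sets overlapped. MSTRG.7544 had 51.9 and 55.4 CPM in the DMBA/TPA libraries and 72.2 and 73.8 CPM in the DMBA libraries, against 21.9 and 21.4 CPM in the DMBA/TPA controls and 26.6 and 25.2 CPM in the DMBA controls. The acetone libraries were tight and the DMBA libraries were above the DMBA/TPA libraries. MSTRG.1726 stood at 28.6 and 27.6 CPM after DMBA/TPA and at 43.3 and 59.7 CPM after DMBA, with 8.34 and 13.8 CPM in the DMBA/TPA controls and 14.2 and 12.9 CPM in the DMBA controls. The second DMBA library was the highest of the 8.

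The remaining 2 of the 10 had Ensembl-format IDs and a few CPM. ENSHGLG00000012949 had 4.49 and 3.99 CPM in the DMBA/TPA libraries and 4.72 and 7.43 CPM in the DMBA libraries, against 1.40 and 1.08 CPM in the DMBA/TPA controls and 1.53 and 0.691 CPM in the DMBA controls. ENSHGLG00000019453 stood at 3.74 and 5.22 CPM after DMBA/TPA and at 4.79 and 8.09 CPM after DMBA, with 0.986 and 0.662 CPM in the DMBA/TPA controls and 1.62 and 1.20 CPM in the DMBA controls. In both, the second DMBA library was highest, and the other 3 treated libraries lay within 2 CPM of each other.

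**Figure D2:**
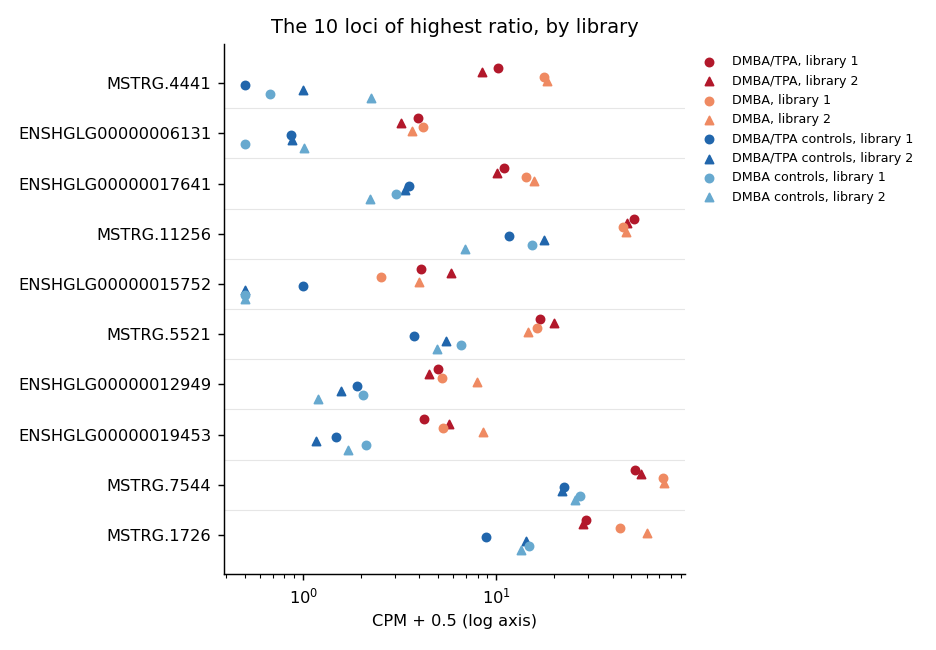
CPM plus 0.5 on a log axis in each of the 8 libraries for the 10 loci of highest ratio, treated libraries in red and orange and acetone libraries in blue, with circles for the first and triangles for the second library of a group. In each row the 4 treated points lie right of the 4 acetone points, and MSTRG.4441 has the widest separation.

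Of the 100 loci 21 had Ensembl-format IDs, as had 16.8% of the eligible loci. They took 7 of the first 20 ranks. Their mean treated level had a median of 6.15 CPM, against 36.5 CPM for the 79 assembled loci, and 15 of the 21 stayed under 10 CPM. Among eligible loci the 2 formats had medians of 10.7 and 24.7 CPM. Over all 100 loci, the mean treated level was under 10 CPM in 25, between 10 and 100 in 55, between 100 and 1000 in 15 and above 1000 in 5. These levels are not per length, so they do not rank loci by transcript number.

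One locus held most of the counts of the set. MSTRG.822, the most abundant of the 100, held 15.0% and 17.8% of all counts in the DMBA/TPA libraries and 8.18% and 8.65% in the DMBA libraries, against 3.99% and 4.12% in the DMBA/TPA controls and 5.76% and 5.35% in the DMBA controls. The other 99 loci together held 4.45% ± 0.5 of counts after DMBA/TPA and 3.96% ± 0.802 after DMBA, against 1.49% ± 0.0404 in DMBA/TPA controls and 2.13% ± 0.133 in DMBA controls (SD, n = 2 each). The share of MSTRG.822 was thus ordered DMBA/TPA, DMBA, DMBA controls and DMBA/TPA controls from high to low, with no overlap between neighbouring groups, while the ranges of the other 99 in the 2 treated groups overlapped.

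**Figure D3:**
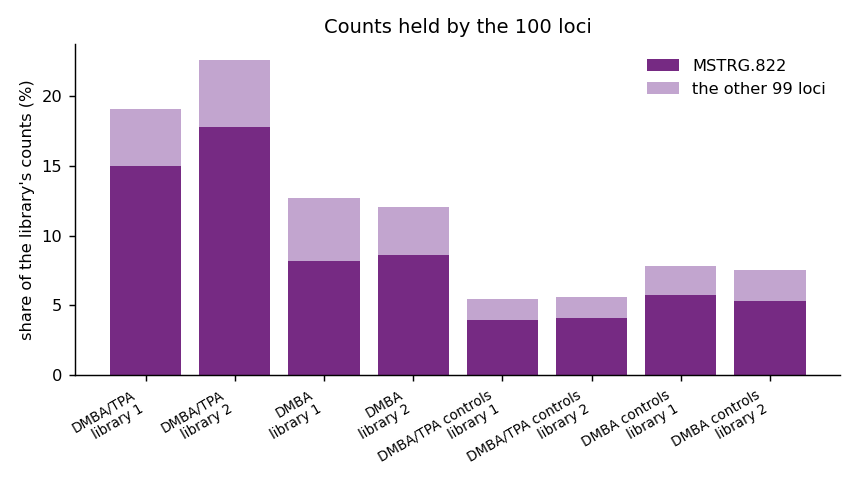
Share of each library's counts, in percent, held by MSTRG.822 and by the other 99 loci, stacked, 1 bar per library. The DMBA/TPA bars reach 19.1% and 22.6%, the DMBA bars 12.7% and 12.0%, and the acetone bars lie between 5.45% and 7.80%.

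The next most abundant loci were also assembled ones. MSTRG.12929 stood at 18143 and 21961 CPM after DMBA/TPA and at 19278 and 12843 CPM after DMBA, with 5978 and 5974 CPM in the DMBA/TPA controls and 7400.2 and 8998 CPM in the DMBA controls. MSTRG.14881 had 11946 and 15105 CPM in the DMBA/TPA libraries and 16569 and 11656 CPM in the DMBA libraries, against 4993 and 5571 CPM in the DMBA/TPA controls and 7923 and 9107 CPM in the DMBA controls. In both, the first DMBA library was above the second, and the DMBA/TPA controls were below the DMBA controls. MSTRG.14987 stood at 3208 and 3222 CPM after DMBA/TPA and at 1996 and 2700.0 CPM after DMBA, with 424 and 270.2 CPM in the DMBA/TPA controls and 1403 and 419 CPM in the DMBA controls. Its first DMBA control library stood apart from the other acetone libraries and set the ratio of 1.42. MSTRG.14578 had 1150.2 and 1437 CPM in the DMBA/TPA libraries and 1162 and 863 CPM in the DMBA libraries, against 531 and 577 CPM in the DMBA/TPA controls and 676 and 645 CPM in the DMBA controls. The lowest treated value of this last one came from the second DMBA library.

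In the model over all 18422 loci tested (edgeR's quasi-likelihood test with Benjamini-Hochberg adjustment over all of them, a locus being called at an adjusted p below 0.05), all 100 loci were called higher after DMBA/TPA than in its controls, where 14.5% of all loci were. In DMBA 46 were called higher, where 0.836% of all loci were. The share of all loci called in refits without a library is not given here. The ranking used both contrasts, so nothing is read from these counts. They also moved with single libraries, to 84 in DMBA/TPA without the first DMBA/TPA control library, to 3 in DMBA without the first DMBA control library and to 71 in DMBA without the second DMBA library. With either DMBA/TPA library left out 8 were called in DMBA, with either DMBA/TPA control library left out 16, and without the second DMBA control library 18.

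Which regimen stood higher was not fixed by the ranking, and most of the 100 loci were not called different between DMBA/TPA and DMBA. The comparison asks how day 46 of the repeated TPA regimen differed from day 10 of DMBA alone, with regimen and day changing together. Of the 100 loci 6 were called higher in DMBA/TPA and 1 lower, where 1.13% and 1.22% of all loci were. The shares were 1.46% and 1.33% among eligible loci alone. The log2 difference was positive in 77 of the 100 loci and in 52.2% of eligible loci. Its median was 0.23, against 0.02 over eligible loci and -0.02 over all loci. Scaling by total counts alone gave medians of -0.00 over the 100 loci and -0.25 over all loci. With it 3 of the 100 were called higher and 2 lower, and the share of all loci called on that scale is not given here. Both DMBA/TPA libraries stood above both DMBA libraries in 31 of the 100 loci and 13.7% of eligible loci on that scale, and in 54 of the 100 loci and 29.2% of eligible loci on TMM-scaled CPM. Both DMBA libraries stood above both DMBA/TPA libraries in 18 of the 100 loci and 39.4% of eligible loci on the first scale and in 11 of the 100 loci and 22.0% of eligible loci on the second. The ranking was made on total counts, where the second DMBA/TPA library was the lowest treated library for 42.5% of eligible loci and for 28 of the 100. A high lowest value therefore favours loci that are not low in DMBA/TPA. These medians and counts, and the calls and adjusted p-values of single loci below, are a description.

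The loci called higher in DMBA/TPA all had assembled IDs, as had 79 of the 100, and the most abundant of the 100 was among them. MSTRG.822 had 149988 and 178099 CPM in the DMBA/TPA libraries and 81833 and 86467 CPM in the DMBA libraries, against 39932 and 41202 CPM in the DMBA/TPA controls and 57644 and 53456 CPM in the DMBA controls. Between DMBA/TPA and DMBA it differed by a log2 value of 1.20 (edgeR, standard error 0.248, adjusted p = 0.0417). MSTRG.1945 stood at 33.0 and 31.6 CPM after DMBA/TPA and at 19.4 and 15.0 CPM after DMBA, with 3.70 and 2.65 CPM in the DMBA/TPA controls and 7.88 and 6.37 CPM in the DMBA controls. Its log2 difference was 1.14 (edgeR, standard error 0.234, adjusted p = 0.0417), and the DMBA libraries did not overlap the DMBA/TPA libraries. MSTRG.16258 had 23.4 and 26.7 CPM in the DMBA/TPA libraries and 12.6 and 15.0 CPM in the DMBA libraries, against 6.53 and 8.98 CPM in the DMBA/TPA controls and 9.45 and 8.40 CPM in the DMBA controls. MSTRG.5704 stood at 72.1 and 60.0 CPM after DMBA/TPA and at 36.4 and 40.0 CPM after DMBA, with 26.9 and 24.2 CPM in the DMBA/TPA controls and 24.5 and 27.2 CPM in the DMBA controls. In these 2 loci the log2 differences were 1.10 and 1.02 (edgeR adjusted p = 0.0328 and 0.0219). By mean CPM, DMBA was nearer to the 4 acetone libraries than to DMBA/TPA in each of the loci called higher. On the log2 scale MSTRG.1945, alone of these loci, differed more between DMBA and its own controls, at 1.47, than between DMBA/TPA and DMBA. MSTRG.10999 had 47.8 and 48.7 CPM in the DMBA/TPA libraries and 31.7 and 25.1 CPM in the DMBA libraries, against 11.4 and 13.9 CPM in the DMBA/TPA controls and 18.2 and 18.5 CPM in the DMBA controls. MSTRG.650, named after its values were seen, had 1153 and 1127 CPM in the DMBA/TPA libraries and 731 and 612 CPM in the DMBA libraries, against 400.5 and 436 CPM in the DMBA/TPA controls and 461 and 439.6 CPM in the DMBA controls. Their log2 differences were 1.00 and 0.99 (edgeR adjusted p = 0.0338 and 0.0328).

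One locus was called lower after DMBA/TPA than after DMBA alone. MSTRG.2456 stood at 136 and 86.8 CPM after DMBA/TPA and at 809 and 554 CPM after DMBA, with 30.3 and 26.1 CPM in the DMBA/TPA controls and 46.3 and 49.0 CPM in the DMBA controls. MSTRG.2456 differed by -2.40 on the log2 scale (edgeR, standard error 0.266, adjusted p = 0.00814), more in size than any other of the 100, and its DMBA/TPA libraries still stood above every acetone library. MSTRG.7876 came next in this direction, with a log2 difference of -0.85 that was not called (edgeR adjusted p = 0.115). The locus had 16.6 and 24.3 CPM in the DMBA/TPA libraries and 40.1 and 47.7 CPM in the DMBA libraries, against 9.33 and 8.36 CPM in the DMBA/TPA controls and 6.74 and 8.73 CPM in the DMBA controls. It was called when scaled by total counts (edgeR adjusted p = 0.0352, in a range of 0.0352 to 0.478 over 14 alternatives). MSTRG.4441, ENSHGLG00000003124 and MSTRG.1726 had log2 differences of -0.76, -0.68 and -0.63, none of them called (edgeR adjusted p = 0.606, 0.419 and 0.165). ENSHGLG00000003124 stood at 2.40 and 2.26 CPM after DMBA/TPA and at 3.92 and 4.88 CPM after DMBA, with 1.15 and 1.32 CPM in the DMBA/TPA controls and 0.875 and 0.291 CPM in the DMBA controls.

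These calls leaned on single libraries. The share of all loci called in each refit is not given here. The counts below therefore show how the calls moved, not how the loci compare with all others. Without the first DMBA/TPA library MSTRG.2456 alone was called, with adjusted p between 0.14 and 0.193 for the other 6 (edgeR). Without the second DMBA/TPA library none was (16 of the 100 and 10.9% of all loci had an unadjusted p below 0.05), with an adjusted p of 0.096 for MSTRG.2456 and between 0.153 and 0.337 for the other 6. With either DMBA/TPA control library left out, which is no part of this comparison but enters the shared estimate of spread, MSTRG.2456 and MSTRG.5704 were called. The calls of MSTRG.822 and MSTRG.1945 ended without either DMBA control library (edgeR adjusted p between 0.0557 and 0.0611), and that of MSTRG.1945 also without the second DMBA library (0.0704). Without the first DMBA library 13 of the 100 were called. With the 2 columns of each control set summed, or with only the 2 treated groups fitted, MSTRG.2456 alone was called. The direction of all 7 held in each of their 14 alternatives, over which the lowest adjusted p of any was 3.54e-16 and the highest 0.337.

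**Figure D4:**
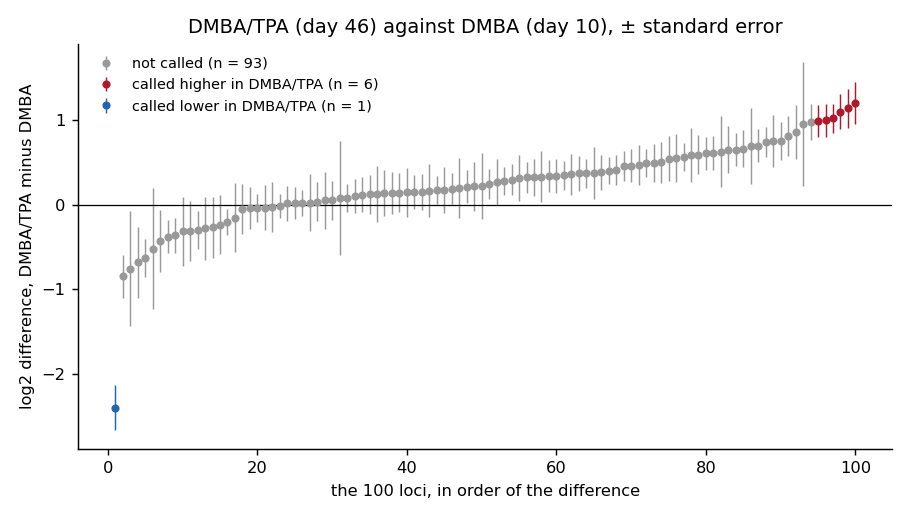
Log2 difference between DMBA/TPA and DMBA for each of the 100 loci in order of size, with standard errors as bars, from the model over all loci. The 6 loci called higher sit at the right end near a log2 difference of 1, and MSTRG.2456 stands alone at -2.40.

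Between the acetone sets of the 2 regimens none of the 100 loci was called, and most were lower by sign in the DMBA/TPA controls, as were most eligible loci. In the DMBA/TPA controls 70 of the 100 loci were lower than in the DMBA controls and 30 higher, where 42.6% of eligible loci were higher. The median log2 difference was -0.27, against -0.07 over eligible loci and -0.02 over all loci. On TMM-scaled CPM both DMBA/TPA control libraries stood below both DMBA control libraries in 52 of the 100 loci and 33.3% of eligible loci, and above them in 8 of the 100 loci and 23.4% of eligible loci. On total counts these numbers were 42 of the 100 loci and 26.9% of eligible loci, and 12 of the 100 loci and 26.7% of eligible loci. None was called by edgeR, where 0.711% of all loci were, and 20 had an unadjusted p below 0.05, where 16.3% of all loci did. DESeq2 called 7, all lower, and edgeR 6 with either DMBA library left out and 1 without the second DMBA control library. A DMBA control library was the highest acetone library, and so set the ratio, for 42 loci (the first) and 29 loci (the second), as it was for 30.9% and 22.7% of eligible loci. A low highest acetone level is part of the ranking, so these signs and counts are a description. The share of all loci called by DESeq2 or without a library is not given here, so those counts are not set against it. The lowest differences were, from the lowest up, in ENSHGLG00000008805, at -2.55, MSTRG.4441 and MSTRG.565. MSTRG.565 had 8.11 and 9.57 CPM in the DMBA/TPA libraries and 16.1 and 8.31 CPM in the DMBA libraries, against 2.01 and 1.41 CPM in the DMBA/TPA controls and 5.86 and 4.51 CPM in the DMBA controls. MSTRG.565 had a log2 difference between the control sets of -1.65 (standard error 0.392, edgeR adjusted p = 0.0896), and on all 8 libraries it was called by DESeq2 (adjusted p = 0.0102) and by edgeR with no low-count filter (adjusted p = 0.0269). It was also called with the first or second DMBA library left out (edgeR adjusted p = 0.0214 and 0.0217, in a range of 0.0102 to 0.788 over 13 alternatives). ENSHGLG00000008805 stood at 3.21 and 2.18 CPM after DMBA/TPA and at 4.29 and 4.74 CPM after DMBA, with 0 and 0.331 CPM in the DMBA/TPA controls and 0.306 and 1.49 CPM in the DMBA controls. Its acetone values rested on 0, 8, 7 and 41 counts, in that order, and its difference lay between -7.65 and -0.89 over 12 alternatives. MSTRG.4441, described above, was higher in the second DMBA control library alone. Without that library its difference changed sign, to 0.47 (edgeR adjusted p = 0.934, in a range of 0.185 to 0.934 over 13 alternatives). In the other direction ENSHGLG00000015752 had 12 counts in 1 DMBA/TPA control library and none in the other acetone libraries. ENSHGLG00000003124 and ENSHGLG00000008552 had log2 differences of 1.05 and 0.72 (edgeR adjusted p = 0.319 and 0.256). Over their 13 alternatives these differences lay between 0.49 and 1.94 and between 0.27 and 1.05, without a call. ENSHGLG00000008552 had 12.0 and 10.2 CPM in the DMBA/TPA libraries and 12.2 and 11.5 CPM in the DMBA libraries, against 7.36 and 4.60 CPM in the DMBA/TPA controls and 3.98 and 3.06 CPM in the DMBA controls.

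For 10 of the 100 loci the effect, meaning the log2 difference from own controls, was called different between the regimens. Both effects entered the ranking, which favours loci that are not low in DMBA/TPA, so these calls and medians are given as a description. The effect was larger after DMBA/TPA for 9 and smaller for MSTRG.2456, where 2.07% and 3.05% of all loci were called in these directions. Among eligible loci alone 2.98% and 3.40% were. The median difference of effects on the log2 scale was 0.56 over the 100 loci, 0.10 over eligible loci and 0.02 over all loci. Scaled by total counts it was 0.26 over the 100 loci and -0.28 over all loci. The 7 loci called between the treated groups were among the 10. For MSTRG.1945 the difference of effects was 2.35 (edgeR, standard error 0.347, adjusted p = 0.00968), made of 1.14 between the treated groups and -1.22 between the control sets. For MSTRG.822 it was 1.72 (standard error 0.348, edgeR adjusted p = 0.0278). The other 3, named after their values were seen, were MSTRG.8301, MSTRG.5785 and MSTRG.5934, with differences of effects of 1.37, 1.19 and 1.16 (edgeR adjusted p = 0.0431, 0.0492 and 0.0364). MSTRG.8301 had 100.3 and 86.3 CPM in the DMBA/TPA libraries and 85.1 and 69.7 CPM in the DMBA libraries, against 23.5 and 25.0 CPM in the DMBA/TPA controls and 34.0 and 50.4 CPM in the DMBA controls. MSTRG.5785 stood at 130.3 and 115 CPM after DMBA/TPA and at 125 and 96.4 CPM after DMBA, with 42.2 and 32.5 CPM in the DMBA/TPA controls and 66.7 and 60.1 CPM in the DMBA controls. In both, the DMBA/TPA controls lay below the DMBA controls without overlap. On total counts the treated groups overlapped in MSTRG.5785 and lay next to each other, DMBA/TPA above DMBA, in MSTRG.8301. On TMM-scaled CPM the DMBA/TPA libraries stood above the DMBA libraries in both. The model's log2 differences between the treated groups were 0.37 in MSTRG.5785 and 0.49 in MSTRG.8301, neither called (edgeR adjusted p = 0.373 and 0.275). The count called among the 100 moved with single libraries, and the share of all loci called in those refits is not given here. The count was 0 in edgeR with either DMBA/TPA library left out, with 30 of the 100 and 16.2% of all loci at an unadjusted p below 0.05 without the first and 23 of the 100 and 15.8% of all loci at an unadjusted p below 0.05 without the second, and DESeq2 on all libraries called 17 of the 100 and 1811 of all loci. It was 1 without the first and 2 without the second DMBA/TPA control library, and 4 with either DMBA control library left out. It was 21 without the first DMBA library.

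Some of the assembled loci carry neighbouring ID numbers. Among the 79 assembled loci, 7 pairs of successive numbers lay within 5 of each other. They were MSTRG.762 and MSTRG.763, MSTRG.8299 and MSTRG.8301, MSTRG.14578 and MSTRG.14579, and the run MSTRG.5932, MSTRG.5934, MSTRG.5938, MSTRG.5942 and MSTRG.5947. The files give no positions, so it is not known whether these loci adjoin in the genome, are pieces of 1 gene or share reads. This grouping was chosen after the values were seen and has no test. MSTRG.5932 had 185 and 172 CPM in the DMBA/TPA libraries and 198 and 216 CPM in the DMBA libraries, against 88.8 and 113 CPM in the DMBA/TPA controls and 119 and 117 CPM in the DMBA controls. MSTRG.5934 stood at 88.7 and 72.8 CPM after DMBA/TPA and at 71.6 and 82.9 CPM after DMBA, with 24.7 and 21.9 CPM in the DMBA/TPA controls and 48.0 and 33.9 CPM in the DMBA controls. MSTRG.5938 had 20.2 and 18.2 CPM in the DMBA/TPA libraries and 19.1 and 25.4 CPM in the DMBA libraries, against 7.97 and 8.49 CPM in the DMBA/TPA controls and 5.60 and 13.0 CPM in the DMBA controls. MSTRG.5938 was the least abundant of the run, and its second DMBA library was highest. MSTRG.5942 stood at 94.1 and 86.8 CPM after DMBA/TPA and at 84.6 and 91.2 CPM after DMBA, with 35.4 and 29.1 CPM in the DMBA/TPA controls and 50.4 and 42.1 CPM in the DMBA controls. MSTRG.5947 had 73.9 and 68.0 CPM in the DMBA/TPA libraries and 69.1 and 71.7 CPM in the DMBA libraries, against 34.2 and 28.5 CPM in the DMBA/TPA controls and 47.6 and 35.8 CPM in the DMBA controls. The fold of mean treated over mean acetone CPM in the run lay between 1.76 and 2.46. All eligible loci had a median fold of 0.848. The ranking chose the loci of the run for a high ratio, so their fold is a description. Most loci between and beside the run also had higher means after treatment. Of the 14 eligible loci numbered 5930 to 5949 that are not among the 100, 13 had a higher treated than acetone mean, with a median fold of 1.67, while 30.5% of all eligible loci had a higher treated mean. In 8 of them both DMBA/TPA libraries were above every acetone library, as in 12.4% of all eligible loci. The first DMBA control library was the highest acetone library in 16 of the 20 loci with these numbers, and in 30.9% of eligible loci. The treated means of these neighbours pool both regimens. By mean CPM, DMBA lay below its own controls in MSTRG.5930, MSTRG.5931, MSTRG.5939, MSTRG.5940, MSTRG.5941 and MSTRG.5949. In MSTRG.5940 the DMBA/TPA libraries had 33.0 and 30.4 CPM and the DMBA libraries 12.2 and 7.32 CPM, against 5.75 and 6.42 CPM in the DMBA/TPA controls and 20.8 and 12.0 CPM in the DMBA controls.

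**Figure D5:**
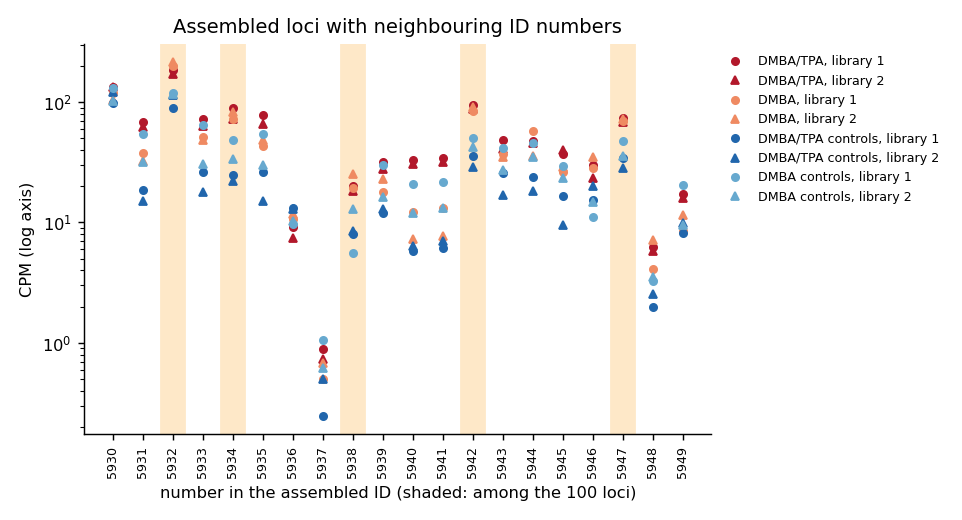
CPM on a log axis in each of the 8 libraries for the 20 assembled loci numbered 5930 to 5949, treated libraries in red and orange and acetone libraries in blue, with the 5 loci of the set shaded. In the shaded columns all treated points lie above all acetone points, while in several others the first DMBA control library lies among the treated points.

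The other pairs shared level to different degrees. MSTRG.762 had 10.5 and 12.2 CPM in the DMBA/TPA libraries and 8.48 and 7.41 CPM in the DMBA libraries, against 4.93 and 5.22 CPM in the DMBA/TPA controls and 5.51 and 4.88 CPM in the DMBA controls. MSTRG.763 stood at 29.4 and 28.0 CPM after DMBA/TPA and at 26.0 and 26.2 CPM after DMBA, with 17.5 and 18.9 CPM in the DMBA/TPA controls and 14.7 and 16.0 CPM in the DMBA controls. In both, the DMBA/TPA libraries stood above the DMBA libraries on this scale. MSTRG.8299 had 139.5 and 119.8 CPM in the DMBA/TPA libraries and 132 and 143 CPM in the DMBA libraries, against 69.9 and 84.4 CPM in the DMBA/TPA controls and 54.9 and 78.1 CPM in the DMBA controls. Its acetone sets overlapped, while in MSTRG.8301, given above, they did not. MSTRG.14579 stood at 936 and 876 CPM after DMBA/TPA and at 544 and 536 CPM after DMBA, with 281 and 289 CPM in the DMBA/TPA controls and 263 and 365 CPM in the DMBA controls. In MSTRG.14579 the DMBA/TPA libraries were above the DMBA libraries without overlap. In MSTRG.14578 the first DMBA library, at 1162 CPM, was just above the first DMBA/TPA library, at 1150 CPM. On TMM-scaled CPM that order was reversed.

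Libraries of a group lay about as close for these loci as for eligible loci, and closer after DMBA. The median absolute log2 difference between the first and second library was 0.181 in DMBA/TPA and 0.216 in DMBA over the 100 loci, and 0.178 and 0.313 over eligible loci. In the DMBA/TPA and DMBA controls it was 0.201 and 0.258 for the 100 loci, and 0.177 and 0.234 for eligible loci. Ranking by the lowest treated value favours loci whose treated libraries lie close together, so the spread of these loci after treatment is not independent of how they were chosen.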

How the data were processed

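Dorsal skin was digested with dispase at 5 mg/ml to lift off the epidermis, whose RNA (integrity above 7) gave rRNA-depleted directional libraries, per the labels' protocols. The values are the authors' raw counts per gene ID, as deposited, with no normalization. The submitters' processing notes name cutadapt, FastQC, Bowtie2 and TopHat2 without role or version. The sources used here name no genome build, annotation or counting tool, nor whether strand was used, so reads of near-identical, overlapping or antisense loci may be split or shared.

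Each of the 8 count columns was taken as 1 library. One column, of the second DMBA/TPA sample, has only a number as its header and was mapped by the sample its table belongs to. No pair of libraries of a group agreed within sampling noise (chi-square per degree of freedom between 26.2 and 137 over loci with 20 or more counts in a pair).

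Counts were fitted in R 4.3.3 with edgeR 4.0.16: filterByExpr (minimum count 10, total 15), TMM scaling, and a robust quasi-likelihood model of the 4 groups with 4 residual degrees of freedom left. Standard errors are the log2 difference over the square root of F. In all, 5 comparisons were made. The fit was tested on simulated counts. The 100 loci, the comparisons and the rule for named loci were chosen with earlier results of these data known. That rule named the 10 loci of highest ratio, the 3 just inside and outside rank 100, the 5 highest and 5 lowest in DMBA/TPA against DMBA, the 5 most abundant, the 5 first Ensembl-format loci, and the 3 highest and 3 lowest between control sets. Alternatives were DESeq2 1.42.0, total-count scaling, no low-count filter, only the groups compared, control columns summed per sample, a block by sample number, each library left out, and other settings of the ranking. Planned marker and pathway lists were not used, since no ID could be named.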

Additional observations from a re-analysis of the deposited data

Results flagged for a closer look

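The log2 difference from own controls was called different between DMBA/TPA and DMBA, by the interaction term in edgeR, for 10 of the 100 loci, as it was for 5.12% of all loci and 6.38% of eligible loci. The ranking used the same treated and acetone values and favours loci that are not low in DMBA/TPA, so the 10 are a description and not independent evidence. The log2 differences of effects, DMBA/TPA minus DMBA, were 2.35 for MSTRG.1945, 1.72 for MSTRG.822, 1.60 for MSTRG.10999, 1.37 for MSTRG.16258, 1.37 for MSTRG.8301, 1.19 for MSTRG.5785, 1.17 for MSTRG.650, 1.16 for MSTRG.5934, 1.11 for MSTRG.5704 and -1.58 for MSTRG.2456. Each kept its sign in its 13 alternatives, but none of the 10 calls held in edgeR with either DMBA/TPA library left out, with 30 of the 100 and 16.2% of all loci at an unadjusted p below 0.05 without the first and 23 of the 100 and 15.8% of all loci at an unadjusted p below 0.05 without the second. DESeq2 called 17 of the 100 and 1811 of all loci. Groups of 2 libraries are too small to look for single libraries that stand apart.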

How the results depend on the processing

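Of the 100 loci, 51 were chosen again with means in place of the lowest and highest values, and between 53 and 91 with 1 library left out. Other pseudocounts, CPM minimums and TMM scaling chose between 78 and 98 again. The count called between DMBA/TPA and DMBA, 7, was 11 with DESeq2, 1 with only these groups fitted, 1 with control columns summed, and between 0 and 13 with 1 library left out. The count between control sets, 0, was 7 in DESeq2, 5 unfiltered and between 0 and 6 with 1 library left out. The count of differing effects, 10, was 17 with DESeq2, 4 with total counts, 0 with control columns summed (25 at an unadjusted p below 0.05) and between 0 and 21 with 1 library left out. In the contrasts that the ranking used, where the alternatives were added after the data were seen, the DMBA count, 46, was 88 in DESeq2, 70 unfiltered, 24 with total counts, 0 with summed columns (edgeR, 96 at an unadjusted p below 0.05) and between 3 and 71 with 1 library left out, and the DMBA/TPA count, 100, between 84 and 100. Fits without a library or with summed columns hold fewer residual degrees of freedom, and the cause of none of these moves was tested. These counts are of the 100 loci alone, without the share of all loci called in the same fit. A library left alone in its group is assumed to vary like the others. Between control sets ENSHGLG00000003124, ENSHGLG00000008552 and ENSHGLG00000008805 moved by over 1.5 times. One named value turned, MSTRG.4441 between control sets, to 0.47 without the second DMBA control library. It was -7.76 without the second DMBA/TPA control library, where the remaining one is at 0 and the fitted value depends on the prior count. Without the first DMBA/TPA control library ENSHGLG00000015752 had no value there, since the remaining control libraries were at 0. The DMBA/TPA and DMBA samples share numbers only: the correlation across loci of their second-minus-first differences was -0.00011. A replicate block gave 6 calls between them, ending that of MSTRG.822 (edgeR adjusted p = 0.0557), and 10 differing effects. The 4 loci with no count in an acetone library, and others of a few CPM, give folds of low precision at this depth.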
